A study of Homo sapiens with 18 samples.

Results

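Amino acid transporters are the carriers through which tumour cells take up and exchange the building blocks of protein, glutathione and nucleotides. Transcripts of 10 such carriers were followed in human tumours grown in mice: SLC1A3, SLC1A4, SLC1A5, SLC3A2, SLC7A5, SLC7A1, SLC38A1, SLC38A2, SLC6A9 and SLC43A1. The rule that picks them is a list of symbols and uses no measured value, but the list was drawn up with earlier results of these data known. They are 10 of the 25343 human genes in each table. All 10 were found by their gene IDs and all 10 had enough counts to be tested, among 14074 tested genes.

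The tumours were xenografts of HCT116, an established human colon cancer line, and every group, vehicle included, carried a knockout of PTDSS2, 1 of the pair of phosphatidylserine synthase genes. Tumour-bearing mice were given DS55980254 by mouth at 10 mg/kg or 30 mg/kg, or its vehicle, 0.5% methylcellulose, and tumours were taken after 24 hours. The title of the series concerns inhibition of PTDSS1, the remaining synthase, in cells without PTDSS2, and the comparisons ask which transcripts differed between dosed and vehicle tumours. Each group had 6 libraries. The labels give neither the age, sex or strain of the mice nor whether the knockout line was 1 clone. Whether the tumours of a group were from different mice is also not stated, and p-values then reflect only the variation among these samples, which may be technical.

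The 10 genes cover several transport systems of the plasma membrane. SLC1A3 (EAAT1) carries glutamate and aspartate with sodium, SLC1A4 (ASCT1) and SLC1A5 (ASCT2) exchange small neutral amino acids, glutamine among them for SLC1A5, and SLC7A5 (LAT1) imports leucine and other large neutral amino acids once paired with the glycoprotein SLC3A2 (CD98 heavy chain). SLC7A1 (CAT1) carries arginine and lysine, SLC38A1 and SLC38A2 (SNAT1 and SNAT2) bring in glutamine and other neutral amino acids with sodium, SLC6A9 (GLYT1) takes up glycine, and SLC43A1 (LAT3) carries branched-chain amino acids without sodium. Several of these genes are known targets of ATF4, the transcription factor that is made more when cells lack amino acids or meet other stresses.

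Total counts were between 3435435 and 8538793 (median 4370611) in 17 libraries and 433989 in 10 mg/kg replicate 2. The log2 values of that library had a mean correlation of 0.726 with those of the others, against 0.942 to 0.954 for the remaining 17. Olfactory receptor genes were averaged as CPM (counts scaled to library size, on which all levels below rest unless TPM is named) per transcript kilobase. The 330 genes averaged left out some families of these receptors. Their mean was 3.84 in 10 mg/kg replicate 2, 1.15 in 10 mg/kg replicate 4 and 0.769 in 30 mg/kg replicate 5. The median of this mean was 0.159 in the libraries other than 10 mg/kg replicate 2. The 10 mg/kg estimates of the carriers are therefore given with and without 10 mg/kg replicate 2. PTDSS2 counts lay between 4.95 and 13.8 CPM over the 18 libraries and PTDSS1 counts between 54.2 and 81.5 CPM. A count over the whole gene does not show which exons are left, so it does not check the knockout. The epithelial markers EPCAM (348 CPM) and KRT8 (2742 CPM) were high in vehicle tumours, and CDX2 was measured at 12.2 CPM. VIL1 (0.34 CPM) and LGALS4 (0.22 CPM), markers of differentiated gut epithelium, were near 0.

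With vehicle, levels per transcript length spanned more than an order of magnitude. TPM, the deposited abundances scaled for transcript length, allow one gene to be set against another, and they were highest for SLC3A2, at 159 ± 19.4 (SD, n = 6). SLC38A2 (127 ± 14.4), SLC7A5 (114 ± 15.1) and SLC1A5 (113 ± 7.55) came next, and the ranges of neighbours among these 4 genes overlapped. Such levels lay above those of between 91.6% and 94.5% of the tested genes. SLC38A1 stood apart from its neighbours on both sides, at 52.8 ± 6.71 TPM (range 44.4 to 60.3). SLC1A3 (40.4 ± 2.85 TPM) and SLC7A1 (35.1 ± 1.73 TPM) overlapped each other. The lowest levels were those of SLC6A9 (5.26 ± 0.863 TPM), SLC1A4 (5.06 ± 1.16 TPM) and SLC43A1 (3.67 ± 0.870 TPM), which overlapped as neighbours and lay above 15.5%, 14.9% and 10.3% of the tested genes.

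**Figure D1:**
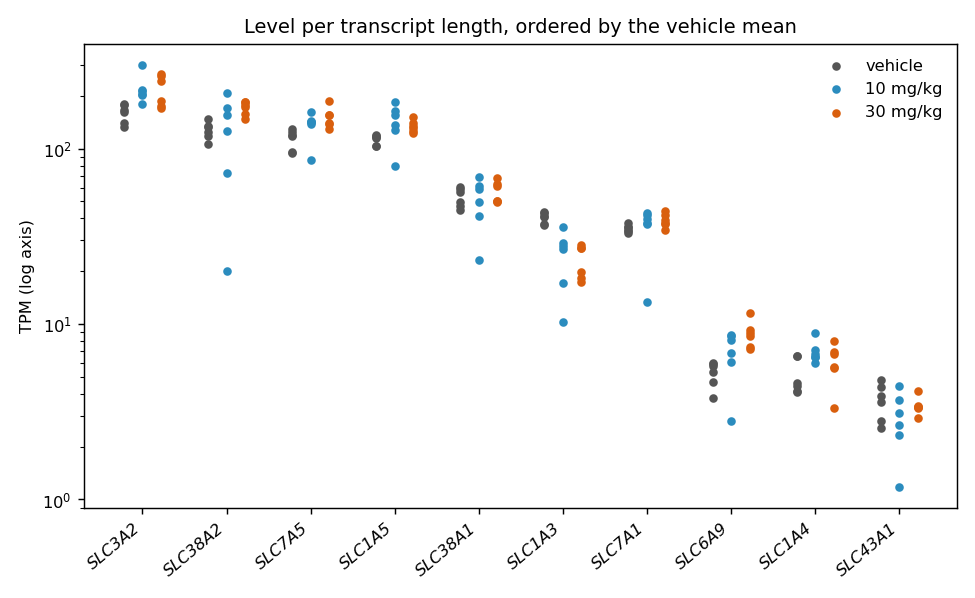
Level of each carrier in TPM (vertical axis, logarithmic), ordered by the vehicle mean, with 1 point per library and 6 libraries a group (grey vehicle, blue 10 mg/kg, orange 30 mg/kg). SLC3A2 is highest with a vehicle mean of 159 TPM and SLC43A1 lowest with 3.67 TPM, and the blue points far below their group are 10 mg/kg replicate 2.

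ATF4 binds DNA together with C/EBP proteins at an element whose letters were searched here as TGATGNAAN on both strands, in windows of 300 bases around the RefSeq gene starts (250 before and 50 after, build GRCh38.p14). The 10 genes had 19 such windows. The element was found in 6 of the 19, 1 each for SLC1A3, SLC1A4, SLC1A5, SLC3A2, SLC7A1 and SLC38A1, whereas 3.61% of all 35116 windows and 4.45% of all 27305 genes with a window hold it. The list was chosen as carriers of which some are known ATF4 targets, so the higher share is tied to that choice and is given as a description. The 6 stretches are shown so that the letters can be compared, with the match in capitals and up to 10 bases on each side. Each is written 5′ to 3′ in the direction in which the match reads.

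SLC1A3, chr5:36596358-36596386, strand of the gene: aggaaatgacTGATGCAAAgcagggttaa
SLC1A4, chr2:64989381-64989409, opposite strand: cggctggagaTGATGCAAAcgggagccgc
SLC1A5, chr19:46784893-46784921, strand of the gene: aggaagtggcTGATGCAAGctgtccaggg
SLC3A2, chr11:62881725-62881748, opposite strand: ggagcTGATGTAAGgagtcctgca
SLC7A1, chr13:29595663-29595691, strand of the gene: ggcgcactgcTGATGAAACctggcgccgg
SLC38A1, chr12:46266502-46266530, strand of the gene: cagacccgaaTGATGAAAAgggatcagct

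Positions were taken relative to the annotated start, for the base of each match farthest upstream in the direction of the gene. That base lay at -220 for SLC1A3, -97 for SLC1A5, -8 for SLC1A4 and -4 for SLC38A1. It lay inside the transcript at 8 for SLC7A1 and 37 for SLC3A2. For SLC1A4 and SLC3A2, matched on the opposite strand, it is the last letter of the match as printed. SLC1A3, SLC1A4 and SLC1A5 shared the 8 letters TGATGCAA. The E-box CACGTG, a palindrome that basic helix-loop-helix factors such as MYC bind, was found in windows of 3 genes, SLC1A5, SLC7A5 and SLC43A1, and in 7.26% of all windows (8.77% of all genes). These are matches of letters, and which start the tumours used was not measured.

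After 24 hours at 30 mg/kg, 1 of the 10 carriers fell and 1 rose. SLC1A3, the glutamate and aspartate carrier, fell to 0.580 of its vehicle level, and SLC6A9, the glycine carrier, rose 1.73-fold (edgeR, adjusted p under 0.05). Of all tested genes 0.618% passed at that dose, 0.568% higher and 0.0497% lower. At 10 mg/kg 0 of the 10 passed, against 0.469% of all genes tested. At an unadjusted p under 0.05, 6 of the 10 differed at 10 mg/kg (5 higher), where 9.5% of all genes did, and 5 of the 10 at 30 mg/kg (4 higher), where 7.9% did. Without 10 mg/kg replicate 2, SLC1A5 passed at 10 mg/kg (of all genes 0.855% did), and SLC7A5 passed at 30 mg/kg beside SLC1A3 and SLC6A9 (1.29%). Unadjusted, 6 of the 10 then differed at 10 mg/kg and 7 at 30 mg/kg, where 9.86% and 11.4% of all genes did.

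Estimates lay above 0 for 8 of the 10 at each dose, both of which were compared with the same vehicle libraries. Their median log2 fold change was 0.21 at 10 mg/kg and 0.28 at 30 mg/kg, (0.24 and 0.28 without 10 mg/kg replicate 2), beside -0.01 and -0.00 over all genes tested, of which 48.8% and 49.8% lay above 0. The values of the 6 dosed and 6 vehicle libraries did not overlap for 1 of the 10 at 10 mg/kg (SLC1A3, lower) and for 3 at 30 mg/kg (SLC1A3 lower, SLC6A9 and SLC38A2 higher). Over all genes tested, 1.14% at 10 mg/kg and 1.71% at 30 mg/kg did not overlap.

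**Figure D2:**
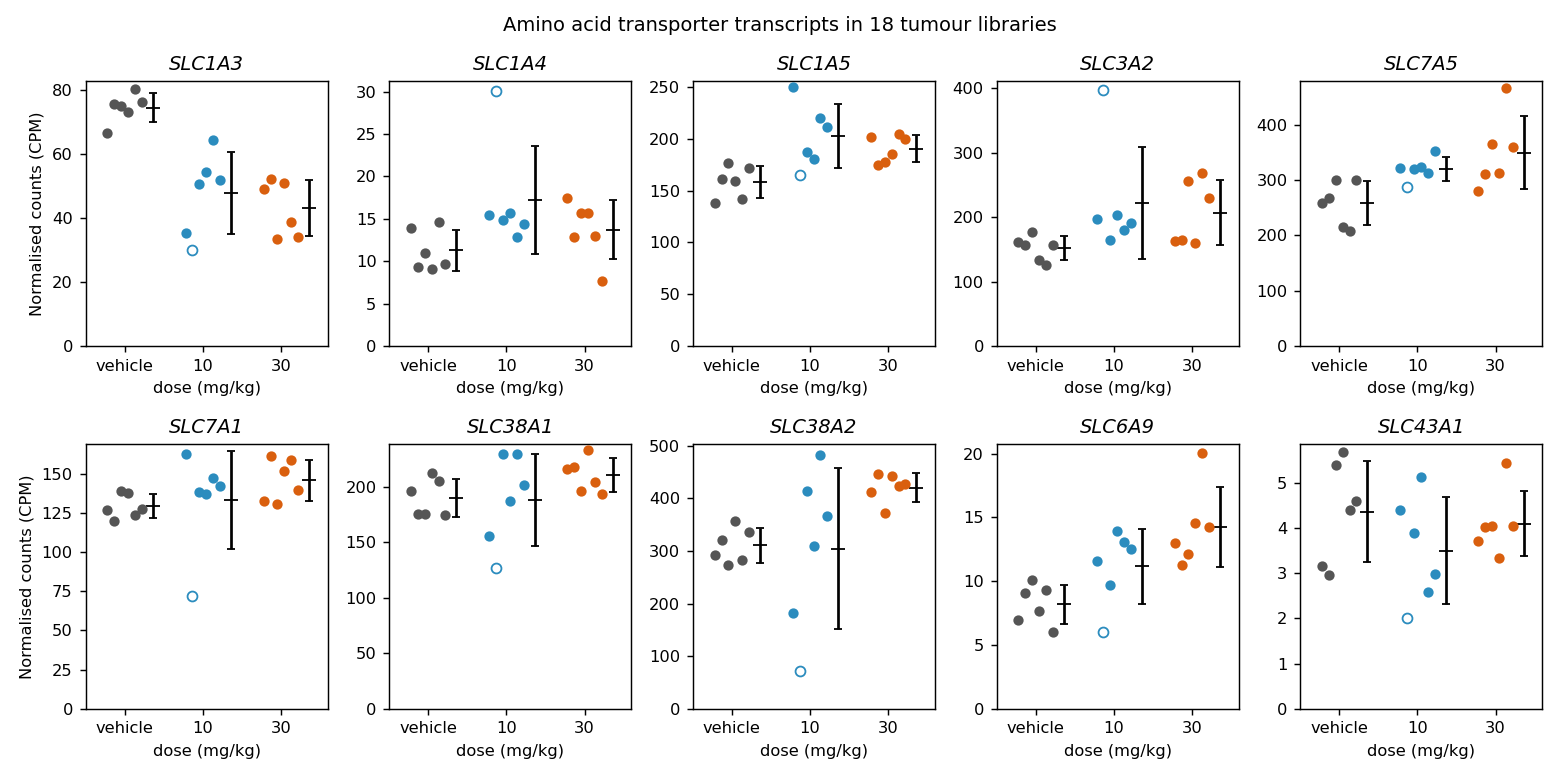
Normalised counts (CPM, vertical axis from 0) of each carrier in each library, by dose, with the group mean ± SD (n = 6) in black beside the points; the open circle is 10 mg/kg replicate 2. All dosed libraries lie below all vehicle libraries for SLC1A3, and all 30 mg/kg libraries lie above all vehicle libraries for SLC6A9 and SLC38A2.

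SLC1A3 was the carrier that fell. Its counts with vehicle ran from 66.8 to 80.4 CPM (median 75.4), at 10 mg/kg from 30.1 to 64.5 CPM (median 51.4) and at 30 mg/kg from 33.6 to 52.3 CPM (median 44.0). Every dosed library, at either dose, was below every vehicle library. At 30 mg/kg the log2 fold change was -0.79 ± 0.14 (SE), with an edgeR adjusted p of 0.0033. The call held with each of the 18 libraries left out in turn (adjusted p between 0.00047 and 0.0148), and it was lost in limma-trend fits of log2(TPM + 1) and log2(TPM + 0.1), where the estimates were -0.81 and -0.83 and the adjusted p 0.299 and 0.339.

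The log2 fold change of SLC1A3 at 10 mg/kg was -0.57 ± 0.14 with an edgeR adjusted p of 0.0849. The lowest of the 6 values was that of 10 mg/kg replicate 2, where 15 counts stood behind it. Without that library the estimate was -0.53 and the adjusted p 0.0509, and without 10 mg/kg replicate 5, the highest at 64.5 CPM, the adjusted p was 0.0343. The step from 10 to 30 mg/kg was -0.21 ± 0.14, adjusted p = 0.969.

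SLC6A9, which takes up glycine, was the carrier that rose. It was measured at 6.05 to 10.1 CPM with vehicle (median 8.38), 6.02 to 14 CPM at 10 mg/kg (median 12.1) and 11.3 to 20.1 CPM at 30 mg/kg (median 13.6). The 30 mg/kg libraries all lay above the vehicle range, and at 10 mg/kg 4 of 6 did. The lowest 10 mg/kg value was replicate 2, with 3 counts. The log2 fold change was 0.79 ± 0.18 at 30 mg/kg (edgeR adjusted p = 0.0363) and 0.53 ± 0.19 at 10 mg/kg (adjusted p = 0.324; 0.57 and 0.184 without replicate 2).

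The call of SLC6A9 at 30 mg/kg stood close to the threshold. It was kept in 8 of the 18 fits that left out 1 library. It was lost without vehicle replicate 1, 2, 4, 5 or 6, without 10 mg/kg replicate 6 and without 30 mg/kg replicate 1, 4, 5 or 6, where the adjusted p lay between 0.0512 and 0.122, while the estimates over all 18 such fits ran from 0.67 to 0.86. It was also lost with library totals as the only scaling (adjusted p = 0.0501), with no filter on low counts (0.0937) and in the fits of log2(TPM + 1) and log2(TPM + 0.1) (0.474 and 0.543). Without 10 mg/kg replicate 2 the adjusted p was 0.0157, and DESeq2 gave 0.00131.

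The 250 bases upstream of a RefSeq start of each of these 2 genes are printed since they were the carriers that passed the test, 1 in each direction. For SLC1A3 it is the first of its 3 annotated starts, chr5:36596338-36596587 on the plus strand of GRCh38.p14, with the element in capitals.

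SLC1A3: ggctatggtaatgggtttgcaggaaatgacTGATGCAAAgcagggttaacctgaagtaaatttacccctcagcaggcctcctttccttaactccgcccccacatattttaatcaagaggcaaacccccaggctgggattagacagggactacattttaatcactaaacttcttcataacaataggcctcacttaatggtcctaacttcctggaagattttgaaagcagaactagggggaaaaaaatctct

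For SLC6A9 it is its 1 annotated start, chr1:44031463-44031712 on the minus strand, which held neither of the searched motifs and is therefore in lower case throughout.

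SLC6A9: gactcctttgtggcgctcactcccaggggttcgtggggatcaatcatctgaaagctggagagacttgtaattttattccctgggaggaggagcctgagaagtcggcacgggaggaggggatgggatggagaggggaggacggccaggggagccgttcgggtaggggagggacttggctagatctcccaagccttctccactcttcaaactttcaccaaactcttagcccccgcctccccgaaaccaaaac

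The neutral amino acid exchangers SLC1A5 and SLC1A4 are relatives of SLC1A3, and neither passed the test. SLC1A5 ran from 138 to 177 CPM with vehicle (median 160), from 165 to 250 CPM at 10 mg/kg (median 199.6) and from 174 to 204 CPM at 30 mg/kg (median 192). At each dose 5 of the 6 libraries were above the vehicle range. The log2 fold change was 0.38 ± 0.10 at 10 mg/kg (edgeR adjusted p = 0.136) and 0.27 ± 0.10 at 30 mg/kg (adjusted p = 0.415). The 10 mg/kg library inside the vehicle range was replicate 2, and without it the estimate was 0.41 and the adjusted p 0.0230, so that SLC1A5 then passed at the lower dose.

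SLC1A4 was measured at 9.12 to 14.7 CPM with vehicle, 12.9 to 30.1 CPM at 10 mg/kg and 7.65 to 17.4 CPM at 30 mg/kg, with medians of 10.3, 15.2 and 14.3. The groups overlapped at both doses, and 30.1 CPM was 10 mg/kg replicate 2, with 15 counts. Its log2 fold change was 0.49 ± 0.21 at 10 mg/kg (adjusted p = 0.459; 0.39 and 0.508 without that library) and 0.29 ± 0.20 at 30 mg/kg (adjusted p = 0.850). Per transcript length, SLC1A5 stood 23.5 ± 6.08 times above SLC1A4 in vehicle tumours, with 21.0 ± 6.86 for the 10 mg/kg (23.4 ± 3.88 without replicate 2) and 24.1 ± 9.21 for the 30 mg/kg group (SD, n = 6 each).

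SLC3A2 and SLC7A5 encode the heavy and light chains of one transporter, and both had higher means in dosed tumours without passing the test. SLC3A2 ran from 126 to 178 CPM with vehicle (median 157), from 165 to 397 CPM at 10 mg/kg (median 194) and from 160 to 269 CPM at 30 mg/kg (median 198). The 397 CPM came from 10 mg/kg replicate 2 (198 counts), and the other 10 mg/kg libraries did not exceed 203 CPM. Its log2 fold change was 0.52 ± 0.19 at 10 mg/kg (edgeR adjusted p = 0.347) and 0.45 ± 0.19 at 30 mg/kg (adjusted p = 0.507). Without replicate 2 these were 0.30 (adjusted p = 0.427) and 0.45 (adjusted p = 0.0880).

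SLC7A5 ran from 208 to 300 CPM with vehicle (median 263), from 287 to 353 CPM at 10 mg/kg (median 321) and from 280 to 466 CPM at 30 mg/kg (median 337). At each dose 5 of the 6 libraries were above the vehicle range. The log2 fold change was 0.33 ± 0.12 at 10 mg/kg (edgeR adjusted p = 0.377; 0.34 and 0.218 without replicate 2) and 0.44 ± 0.12 at 30 mg/kg (adjusted p = 0.144). Without 10 mg/kg replicate 2, which enters the shared estimate of spread, the adjusted p at 30 mg/kg was 0.0433 and SLC7A5 passed. It also passed there by DESeq2 (adjusted p = 0.0155) and by limma-voom with sample weights (0.0450). It did not pass with the vehicle and 30 mg/kg libraries fitted alone (edgeR adjusted p = 0.0819), by limma-voom without weights (0.103) or by limma-trend on log2(TPM + 1) (0.689). Of the 18 fits that left out 1 library, it passed in 1. Without 10 mg/kg replicates 2 and 4 and 30 mg/kg replicate 5, the estimate was 0.34 and the edgeR adjusted p 0.0967. That fit was added after seeing the data.

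SLC7A5 was the 1 carrier whose counts were not whole numbers, in 17 of 18 libraries, as happens when estimated counts share reads among near-identical genes. Its partial copies SLC7A5P1 and SLC7A5P2 had 8.90 ± 2.22 and 54.2 ± 6.19 CPM in vehicle tumours, 10.6 ± 2.23 and 63.3 ± 18.5 CPM in the 10 mg/kg group, and 8.57 ± 2.58 and 51.8 ± 9.62 CPM in the 30 mg/kg group. Neither copy passed at 30 mg/kg (log2 fold change -0.04 and -0.07, edgeR adjusted p = 0.999 and 0.987). In TPM the copies stood at 32.3 ± 8.26 and 43.3 ± 4.40 with vehicle, where SLC7A5 was at 114 ± 15.1. How reads were divided among the 3 genes makes their separate levels uncertain. The rank of SLC7A5 in TPM and its ratio to SLC3A2 carry the same limit.

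The ratio of the 2 chains differed between vehicle and 30 mg/kg by less than its SD. In TPM, SLC7A5 was 0.713 ± 0.0457 of SLC3A2 with vehicle and 0.708 ± 0.0858 at 30 mg/kg (SD, n = 6). Its value at 10 mg/kg was 0.647 ± 0.183, or 0.719 ± 0.0567 without replicate 2, where it was 0.288. These ratios were not tested.

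The 30 mg/kg libraries were uneven in both chains and in SLC1A3. Replicates 3, 5 and 6 had SLC3A2 at 256, 269 and 230 CPM, and replicates 1, 2 and 4 had it at 162, 165 and 160 CPM, inside the vehicle range. SLC7A5 in the same order was 365, 466 and 360 CPM against 280, 311 and 313 CPM. SLC1A3 was 33.6, 38.8 and 34.0 CPM against 49.3, 52.3 and 51.0 CPM. The libraries with the most SLC3A2 were thus also those with the most SLC7A5 and the least SLC1A3 at that dose. The split was not confined to the carriers. Over all tested genes, deviations of log2 CPM from the group mean were correlated between libraries. Vehicle replicate 3 gave 0.22, 0.22 and 0.20 with 30 mg/kg replicates 3, 5 and 6. With replicates 1, 2 and 4 it gave -0.23, -0.26 and -0.23. In the same order 10 mg/kg replicate 3 gave -0.28, -0.27 and -0.17, then 0.27, 0.24 and 0.30. For vehicle replicate 6 all lay between -0.03 and 0.02. Among the 10 mg/kg libraries, replicate 2 had the most SLC3A2 and the least SLC1A3, but its SLC7A5, at 287 CPM, was the lowest of its group. Nothing in the labels sets these libraries apart, and a cause was not tested.

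**Figure D3:**
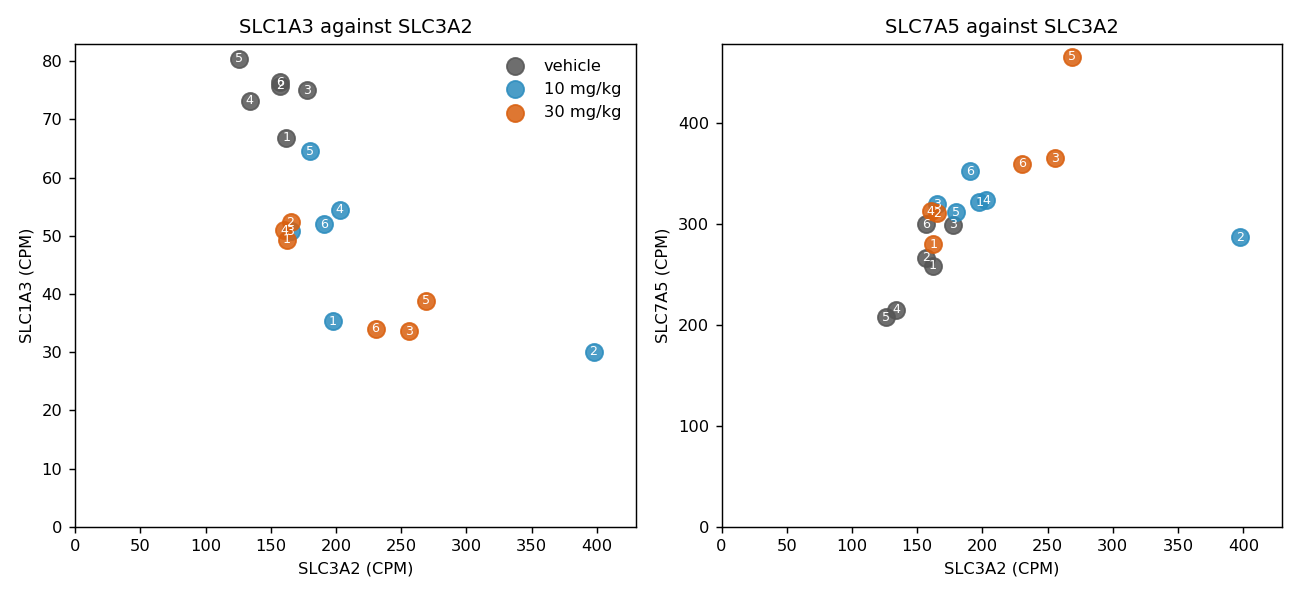
SLC1A3 (left) and SLC7A5 (right) against SLC3A2, all in CPM on linear axes from 0, with 1 point per library, coloured by group and numbered by replicate. At 30 mg/kg replicates 3, 5 and 6 lie to the right (230 to 269 CPM of SLC3A2), lower for SLC1A3 and higher for SLC7A5 than replicates 1, 2 and 4; 10 mg/kg replicate 2 lies alone at 397 CPM.

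SLC7A11 (xCT), the cystine and glutamate exchanger, is another light chain that pairs with SLC3A2, and it rose at 30 mg/kg. Its counts ran from 16.2 to 33.9 CPM with vehicle (median 23.0), from 29.7 to 56.8 CPM at 10 mg/kg (median 38.9) and from 40.4 to 61.5 CPM at 30 mg/kg (median 51.5). The 30 mg/kg and vehicle libraries did not overlap. It was 2.06-fold higher at 30 mg/kg (log2 fold change 1.04 ± 0.17, edgeR adjusted p = 0.00126) and 1.68-fold at 10 mg/kg (0.75 ± 0.17, adjusted p = 0.0551). It passed at 10 mg/kg too without replicate 2 of that group (0.73, adjusted p = 0.0340). In TPM it was 0.0323 ± 0.0114 of SLC3A2 in vehicle tumours, with 0.0381 ± 0.0137 for the 10 mg/kg (0.0415 ± 0.0120 without replicate 2) and 0.0504 ± 0.0193 for the 30 mg/kg group.

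SLC38A2 and SLC38A1, the sodium-coupled glutamine carriers, did not pass at either dose. SLC38A2 ran from 274 to 356 CPM with vehicle (median 307), from 72.3 to 483 CPM at 10 mg/kg (median 338) and from 372 to 446 CPM at 30 mg/kg (median 425). The 30 mg/kg libraries were all above the vehicle libraries, and the 10 mg/kg libraries spread beyond both groups on both sides. Besides replicate 2 (72.3 CPM, 36 counts), 10 mg/kg replicate 1 was low at 182 CPM in a library of full depth.

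The estimate for SLC38A2 at 30 mg/kg was 0.44 ± 0.24 with an edgeR adjusted p of 0.721. Since the spread is shared over the 3 groups, the wide 10 mg/kg values enter that test. Fitted on the vehicle and 30 mg/kg libraries alone, the same difference gave 0.44 and an adjusted p of 0.003, and without 10 mg/kg replicate 2 the adjusted p was 0.198. The estimate at 10 mg/kg was 0.01 ± 0.24 (adjusted p = 0.998; 0.18 and 0.772 without replicate 2).

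SLC38A1 was between 174 and 212 CPM with vehicle (median 186), 126 and 230 CPM at 10 mg/kg (median 194) and 193 and 233 CPM at 30 mg/kg (median 210.1). The groups overlapped. Its log2 fold change was 0.02 ± 0.12 at 10 mg/kg (edgeR adjusted p = 0.978; 0.085 and 0.830 without replicate 2) and 0.15 ± 0.11 at 30 mg/kg (adjusted p = 0.882). SLC38A2 stood 2.43 ± 0.313 times above SLC38A1 in TPM with vehicle and 3.01 ± 0.263 times at 30 mg/kg. At 10 mg/kg the ratio was 2.26 ± 0.804 (2.54 ± 0.474 without replicate 2), with 0.867 in replicate 2 and 1.75 in replicate 1.

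SLC7A1, the arginine and lysine carrier, differed little between groups. It ran from 120 to 139 CPM with vehicle (median 127), from 72.3 to 163 CPM at 10 mg/kg (median 140.1) and from 131 to 161 CPM at 30 mg/kg (median 146). The low value was again 10 mg/kg replicate 2, with 36 counts, and the remaining 10 mg/kg libraries lay between 137 and 163 CPM. The log2 fold change was 0.09 ± 0.12 at 10 mg/kg (edgeR adjusted p = 0.826; 0.18 and 0.493 without that library) and 0.17 ± 0.11 at 30 mg/kg (adjusted p = 0.830).

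SLC43A1, the branched-chain carrier and the lowest of the 10, had overlapping values in all groups. It was between 2.95 and 5.68 CPM with vehicle, 2.01 and 5.13 CPM at 10 mg/kg and 3.33 and 5.43 CPM at 30 mg/kg. In 10 mg/kg replicate 2 it rested on 1 count. The log2 fold change was -0.24 ± 0.27 at 10 mg/kg (edgeR adjusted p = 0.810; -0.21 and 0.875 without replicate 2) and -0.09 ± 0.26 at 30 mg/kg (adjusted p = 0.991), and at this depth the standard errors leave differences of such size undetectable.

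**Figure D4:**
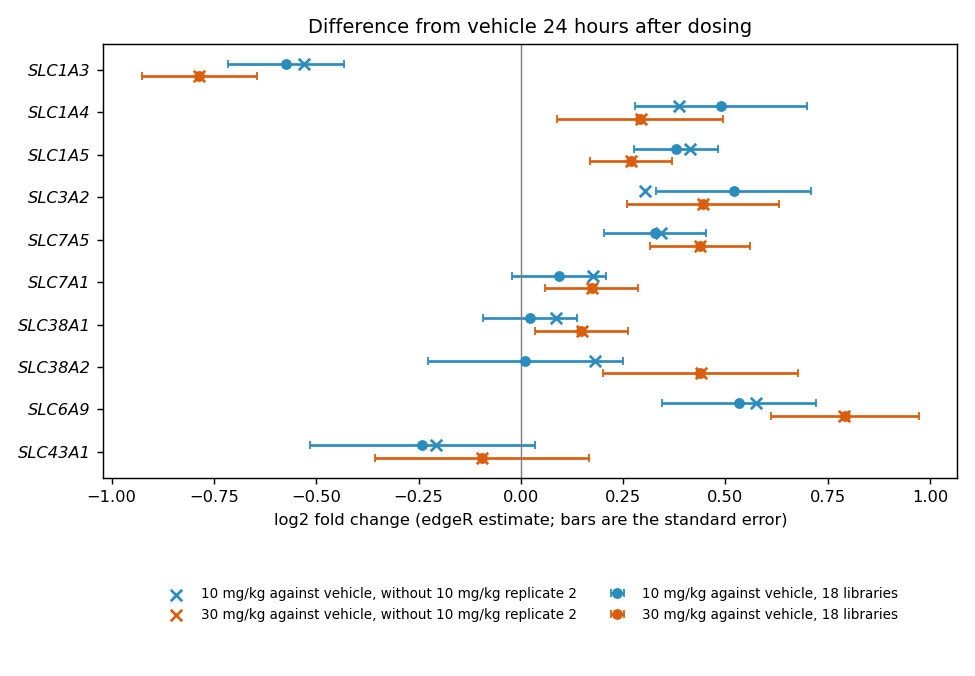
edgeR log2 fold change against vehicle for each carrier (horizontal axis) at 10 mg/kg (blue) and 30 mg/kg (orange), with filled points and standard errors from all 18 libraries and crosses from the fit without 10 mg/kg replicate 2. SLC1A3 (-0.79) and SLC6A9 (0.79) at 30 mg/kg are the estimates farthest from 0, and the cross for SLC3A2 at 10 mg/kg falls from 0.52 to 0.30.

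The doses were also compared with each other. Of the 10 carriers 0 differed between 30 and 10 mg/kg by edgeR's adjusted p, as did 0% of all genes tested, and 0 also by DESeq2, limma-voom with and without sample weights, and limma-trend on TPM. At an unadjusted p under 0.05 it was 0 of the 10 against 3.52% of all genes, and for 0 of the 10 did the 2 dose groups not overlap, against 0.128%. Estimates ran from -0.21 for SLC1A3 to 0.43 ± 0.24 for SLC38A2, with a median of 0.09, and 6 of 10 were above 0. The sign turned without 10 mg/kg replicate 2 for SLC3A2 (from -0.07 to 0.14) and SLC7A1 (from 0.08 to -0.00).

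Other amino acid carriers were counted as lists, to be read against the shares of all genes that passed (0.469% at 10 mg/kg and 0.618% at 30 mg/kg) or had an unadjusted p under 0.05 (9.5% and 7.9%). Of 25 further carriers of the plasma membrane 16 were tested, and SLC7A11 at 30 mg/kg was the 1 that passed at either dose. Their median log2 fold change was 0.12 at 10 mg/kg and 0.07 at 30 mg/kg, and 3 had an unadjusted p under 0.05 at each dose. Without 10 mg/kg replicate 2, 17 were tested and SLC7A11 passed at both doses. SLC7A2, another carrier of arginine and lysine, then fell at 30 mg/kg (log2 fold change -0.69, edgeR adjusted p = 0.0265). It is named after its value was seen. In that fit 0.855% of all genes passed at 10 mg/kg and 1.29% at 30 mg/kg, where 43 of 14145 fell. Of the lysosomal carriers 6 of 7 were tested and 0 passed at either dose (medians 0.15 and 0.08), and 0 had an unadjusted p under 0.05. Of the mitochondrial carriers 10 of 12 were tested and 0 passed (medians -0.03 and -0.02), with 1 at an unadjusted p under 0.05 at each dose.

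Genes known as ATF4 targets that are not carriers were counted in the same way. This list was also drawn up with earlier results of these data known, so its shares are a description. Of 28 such genes 25 were tested, with a median of 0.27 at 10 mg/kg, where 3 rose and 0 fell, and of 0.35 at 30 mg/kg, where 5 rose and 0 fell. Those that rose were 12% and 20% of the 25. Over all genes, 59 of 14074 rose at 10 mg/kg and 80 of 14074 (0.568%) at 30 mg/kg. An unadjusted p under 0.05 was found for 8 at 10 mg/kg and 14 at 30 mg/kg, all of them higher. Over all genes, in either direction, the shares were 9.5% and 7.9%. Without 10 mg/kg replicate 2, 3 rose at 10 mg/kg and 6 at 30 mg/kg. Over all genes in that fit, 105 of 14145 rose at 10 mg/kg and 139 of 14145 at 30 mg/kg. The sixth at 30 mg/kg was ATF3, a transcription factor of the same stress response (1.55-fold, edgeR adjusted p = 0.0415). It is named after its value was seen. CHAC1, which degrades glutathione, rose 2.98-fold at 10 mg/kg (edgeR adjusted p = 0.0149) and 3.64-fold at 30 mg/kg (0.00124). TRIB3, a pseudokinase that restrains ATF4, rose 1.65-fold (0.0153) and 1.71-fold (0.00307), and CEBPG, a C/EBP partner of ATF4, rose 1.40-fold (0.0194) and 1.41-fold (0.00872).

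ASNS, asparagine synthetase, rose 1.80-fold at 30 mg/kg (edgeR adjusted p = 0.00426) and was 1.41-fold higher at 10 mg/kg without passing (0.269). PCK2, the mitochondrial phosphoenolpyruvate carboxykinase, rose 1.62-fold at 30 mg/kg (0.0222) and stood at 1.43-fold at 10 mg/kg (0.221). Of 25 genes that sense amino acids upstream of mTORC1, all 25 were tested and 0 passed at either dose, with medians of 0.02 and 0.05. At an unadjusted p under 0.05 there were 1 at 10 mg/kg and 3 at 30 mg/kg. Over all genes 0.469% and 0.618% passed, and 9.5% and 7.9% had an unadjusted p under 0.05.

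The genes whose pattern over 17 libraries (10 mg/kg replicate 2 left out) was most like that of the carriers that passed were picked by the mean absolute gap between log2(CPM + 0.5) values, each gene set to its own mean, among 12534 genes with at least 5 CPM. For SLC1A3 they were LRRCC1 (gap 0.18), FAM171B (0.18) and CFAP68 (0.18), against a median gap of 0.39 over all those genes. None of these 3 passed at either dose, with edgeR adjusted p from 0.0731 upwards. For SLC6A9 they were RHOB, GARS1 and SDC4 (0.16 each), against a median of 0.38. RHOB, a small GTPase, rose at both doses (adjusted p = 0.000828 and 0.000392), GARS1, glycyl-tRNA synthetase, rose at 30 mg/kg (0.00744), and SDC4, a syndecan, did not pass (0.0772 and 0.139). As these genes were picked for following SLC6A9 over the same libraries, their small gaps and their differences with dose come with that choice and are a description.

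Human genes that mark other cell types were also counted, since in a bulk tumour fewer cells of a type and less RNA per cell cannot be told apart. The host cells of these xenografts are mouse cells, whereas the counts are of human genes. How mouse reads were set aside is not given, so the sums below do not measure the amount of host cells. The summed level of 8 epithelial markers was 5189 to 6850 CPM with vehicle, 3738 to 7236 CPM at 10 mg/kg (5031 to 7236 CPM without replicate 2) and 5501 to 6899 CPM at 30 mg/kg. The 8 fibroblast markers summed to 63.1 to 110.0 CPM with vehicle, 75.0 to 307 CPM at 10 mg/kg (75.0 to 106 CPM without replicate 2) and 71.6 to 94.7 CPM at 30 mg/kg. COL1A1 made up 86.5 CPM of the vehicle mean. COL3A1 (2.66 CPM) and THY1 (1.43 CPM) also had counts in all 18 libraries, and PDGFRB (0.63), COL1A2 (0.15), FAP (0.11), LUM (0.04) and DCN (0) were below 1 CPM.

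The 6 endothelial markers summed to 5.47 to 16.9 CPM with vehicle, 6.05 to 88.3 CPM at 10 mg/kg (at most 22.5 CPM without replicate 2) and 5.28 to 19.5 CPM at 30 mg/kg. The 8 leukocyte markers summed to 13.4 to 20.9, 16.4 to 68.3 (at most 23.7 without replicate 2) and 14.8 to 20.9 CPM, for the 3 groups in that order. Their vehicle means were 7.02 CPM for CD68, 4.54 for LYZ, 1.70 for CSF1R, 1.69 for CD74 and 1.15 for ITGAM, each with counts in all 18 libraries, and 0.35 for CD14, 0.04 for PTPRC and 0.03 for TYROBP. The 5 muscle markers reached 9.90, 72.3 and 19.5 CPM, the 4 adipocyte markers 3.75, 40.1 and 4.34 CPM, and the 4 erythroid markers 0.94, 10.0 and 0.81 CPM. The highest 10 mg/kg sums without replicate 2 were 21.4, 6.84 and 1.43 CPM. The highest sum of every one of these non-epithelial lists was in 10 mg/kg replicate 2, where 1 count makes 2.01 CPM. Of the 43 markers in all lists, the 16 that could be tested gave 0 passes at either dose. Over all genes tested 0.469% passed at 10 mg/kg and 0.618% at 30 mg/kg, so 0 of 16 is near that share. The part of other cells in the differences of SLC1A3 and SLC6A9 was not tested.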

How the data were processed

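The 10 carriers, the gene lists and the rule for named genes were chosen with earlier results of these data known. The authors deposited 1 gene table per library (18 tables, 25343 human genes by Entrez ID). Per the file headers it holds expected counts, which are unscaled estimates of the reads of a gene, and TPM, which the authors scaled for transcript length. The submitters' processing notes name STAR 2.4.2a and the builds hg19 and mm10 without their roles; the counting tool, the annotation, the use of strand and how mouse reads were set aside were each not given in the sources used here. Symbols came from RefSeq (GRCh38.p14), where 25220 genes matched on gene ID, 26 on a transcript accession and 97 on neither. No gene coordinates of the counts' build are printed.

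Expected counts were rounded, filtered with filterByExpr on the 3 groups, scaled by TMM and fitted over all 18 libraries with the robust quasi-likelihood test of edgeR 4.0.16 (R 4.3.3). P-values were adjusted by Benjamini-Hochberg over all genes tested, with 0.05 as the threshold. CPM are TMM-scaled, and ± is the SD of levels and the SE of log2 fold changes. A group called non-overlapping has all its values above or below those of the other. Named were all 10 carriers, genes of the other lists that passed (up to 6 a list), SLC7A11 whatever its p, and the 3 genes most like each carrier that passed. The model was checked on simulated counts.

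Alternatives were other scalings and filters, DESeq2 1.42.0 on all genes with a count, limma 3.58.1 on counts and on log2 TPM (pseudocounts 1 and 0.1), the groups compared alone, the replicate number as a block and each library left out. The fit without 10 mg/kg replicates 2 and 4 and 30 mg/kg replicate 5 together was added after seeing the data. No pair of libraries held identical values.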

Additional observations from a re-analysis of the deposited data

Results flagged for a closer look

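Of the 30 sets of 6 libraries (10 carriers in 3 groups), 4 held 1 library far from the other 5 by Dixon's test at its 95% critical value, which chance alone flags in about 1 in 20 sets. In 10 mg/kg replicate 2, the shallowest library, SLC1A4 was at 30.1 CPM (15 counts), against 12.9 to 15.7 CPM in the others of its group. In the same library SLC3A2 was at 397 CPM (198 counts), against 165 to 203 CPM, and SLC7A1 at 72.3 CPM (36 counts), against 137 to 163 CPM. In 30 mg/kg replicate 5, SLC43A1 was at 5.43 CPM (20 counts), against 3.33 to 4.05 CPM. Total counts and the mean level of olfactory receptor genes in these libraries are given with the results, and their part in these values was not tested.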

How the results depend on the processing

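At 10 mg/kg the 66 genes past the threshold became 485 by DESeq2 (fitted on the 23291 genes with a count, with its own filter), 235 by limma-voom with sample weights, 32 with no filter, 36 with the 2 groups alone, 12 and 11 on log2(TPM + 1) and log2(TPM + 0.1), and 31 to 121 with 1 library left out. At 30 mg/kg the 87 became 226, 315, 57, 191, 23 and 26 in the same order, 223 without the 3 libraries named in the processing, and 61 to 182 with 1 left out. The number of carriers past the threshold at 10 mg/kg (0) became 2 by DESeq2 and by sample weights (SLC1A3 lower, SLC1A5 higher) and 1 (SLC1A5) with library totals alone and without those 3 libraries. With 1 library left out it was 0 to 1. At 30 mg/kg (2) it became 1 with library totals alone and with no filter, 0 on both TPM scales, 3 by DESeq2 and by sample weights (SLC7A5 added) and with the 2 groups alone (SLC38A2 added), and 1 to 3 with 1 left out. Against the median of all genes tested by edgeR, that of the genes fitted by DESeq2 lay 0.15 away at 10 mg/kg and -0.11 between the doses, and those of the TPM scales -0.11 and -0.12 at 10 mg/kg.

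The replicate numbers did not pair the libraries: of 18 same-numbered pairs 3 had a correlation of deviations above 0.1 (range -0.28 to 0.22). With the replicate block 24 genes passed at 10 mg/kg and 60 at 30 mg/kg, 0 between the doses, and 1 carrier, SLC1A3, at 30 mg/kg; SLC6A9 had an adjusted p of 0.104, and SLC38A2 at 10 mg/kg turned to -0.080.

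Estimates near 0 changed sign. Among the 10 mg/kg differences SLC7A1 was -0.071 and -0.077 on the TPM scales, SLC38A1 -0.13 on both and -0.041 with no filter, and SLC38A2 -0.33 and -0.34 on the TPM scales, -0.035 with no filter, -0.0071 by DESeq2 and -0.13 by limma-voom. Between the doses SLC3A2 was 0.0064 with no filter, 0.025 with sample weights and 0.085 without the 3 libraries, where SLC7A1 was -0.048 and SLC7A5 -0.0067. With 1 library left out, SLC38A1 (-0.034 to 0.089) and SLC38A2 (-0.16 to 0.18) at 10 mg/kg, SLC43A1 at 30 mg/kg (-0.18 to 0.00075), and SLC3A2 (-0.17 to 0.14), SLC7A1 (-0.0030 to 0.13) and SLC7A5 (-0.0014 to 0.16) between the doses changed sign. The causes were not tested. In 10 mg/kg replicate 2 depth left 1 count for SLC43A1, 3 for SLC6A9 and 15 each for SLC1A3 and SLC1A4.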

Other observations

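The 10 carriers together made up 656 ± 28.4 TPM in vehicle tumours, 749 ± 115 TPM in the 10 mg/kg group (789 ± 65.3 without replicate 2) and 811 ± 34.5 TPM in the 30 mg/kg group (SD, n = 6 each). The sum ran from 601 to 681 TPM in vehicle libraries and from 772 to 867 TPM at 30 mg/kg, and from 546 to 881 TPM at 10 mg/kg (717 to 881 without replicate 2). SLC1A3 was 6.18 ± 0.611% of the sum in vehicle tumours, 3.17 ± 0.853% in the 10 mg/kg (3.42 ± 0.637% without replicate 2) and 2.86 ± 0.719% in the 30 mg/kg group. The share of SLC6A9 was 0.81 ± 0.15% with vehicle and 1.09 ± 0.16% at 30 mg/kg, and that of SLC7A5 17.3 ± 1.77% and 18.6 ± 1.75%. These sums and shares mix carriers of different substrates and were not tested.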
